A study of Mus musculus with 16 samples.

Results

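The genes described here carry the glucagon signal in liver from the cell surface to the genome: the receptor Gcgr, the G protein subunit Gnas, the PKA subunits Prkaca and Prkar1a, the transcription factor Creb1 with its coactivator Crtc2, and the feedback genes Sik1, Pde4b, Crem and Nr4a1. They were chosen by symbol for their place in this pathway, with earlier results of these data known, and make up 10 of the 55487 gene rows of the deposited table. All 10 were found, and 9 of them were among the 11839 genes whose mean reached 1 TPM and which were tested. Creb1, with a mean of 0.761 TPM, fell below that limit.

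Liver RNA was sequenced from 16 male C57BL6/J mice, with 4 mice in each of 4 groups and 1 library per mouse. The sample records give every mouse a starting age of 10 weeks and 8 weeks on a diet with 60 kcal% fat before the study. The step to which this age refers is not stated here. The mice were then moved to fat-rich diets that held standard (SP) or high (HP) amounts of protein. On each diet, vehicle or the glucagon analogue G108 at 2.5 nmol/kg was injected under the skin once a day for 22 days. All mice were culled after a 4 h fast, on day 25 by the sample records. The methods of the study give an age under 10 weeks at the start of the high-fat diet. They also give a lead-in on the SP or HP diet before treatment and an earlier day of cull. The time from the last dose to the cull is therefore not settled by the sources used here. The labels give no altered allele in any group, G108 was given at a single dose, and RNA was taken at 1 time point.

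Glucagon binds a receptor that hepatocytes carry at high density. The receptor activates the stimulatory G protein, adenylyl cyclase then makes cAMP, and cAMP frees the catalytic subunit of protein kinase A (PKA) from its regulatory subunit. PKA phosphorylates CREB and also blocks the salt-inducible kinases, so that CRTC2 moves to the nucleus and joins CREB on genes of glucose production. Some CREB targets act back on the pathway: Sik1 holds CRTC2 in the cytoplasm, Pde4b hydrolyses cAMP and Crem encodes factors that include the repressor ICER. Most of the control of this pathway is by second messenger and phosphorylation, which RNA levels do not show.

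Values below are scaled TPM, that is, the deposited TPM (a transcript share per unit length, with a fixed total per library) divided by a median-of-ratios factor that brings the typical gene of each library to a common level. The factors lay between 0.681 and 1.54 and were highest in G108 SP. In TPM as deposited the median gene was higher by 0.60 on the log2 scale with G108 on SP and by 0.09 on HP. Major urinary proteins took 42.6 to 49.7% of TPM in vehicle SP and 18.4 to 23.0% in G108 SP, and on HP 35.7 to 44.9% with vehicle and 18.2 to 29.6% with G108. The mitochondrial share was highest in G108 HP mouse 3, at 37.3%, and TPM of every library sum to the same total. Recovered read numbers were 27.8 M to 45.0 M per library. Their group medians were higher with vehicle (40.4 M on SP, 37.2 M on HP) than with G108 (29.7 M on SP, 31.25 M on HP). The 6 hepatocyte markers were all above the limit of 1 TPM. Lep and Prss2, which mark adipocytes and exocrine pancreas, were at 0 in all 16 libraries, but other markers of these cells were detected. The pancreas marker Cela1 had a mean of 8.43 TPM as deposited, whereas Ctrb1 and Cpa1 had means of only 0.013 and 0.0013. Summed pancreas markers, which are mostly Cela1, lay between 5.41 and 11.2 scaled TPM across the groups, and summed adipocyte markers between 0 and 0.30. Summed Kupffer cell markers overlapped between the groups. Summed markers of sinusoidal endothelial cells ran from 20.2 to 23.9 in vehicle SP and from 15.8 to 17.9 in G108 SP, with 0 of 5 called by limma and 4 of 5 at an unadjusted p under 0.05. Of 5 red blood cell markers, limma called 0 on SP, with 3 at an unadjusted p under 0.05: Hba-a1 and Hba-a2 at log2 fold changes of -1.01 and -0.99, and Alas2 at 0.49. Averaged over diets Alas2 rose by 0.33 on the log2 scale (limma adjusted p = 0.0370), while Hba-a1 was at -0.40 (limma adjusted p = 0.505). The part of these shifts in the results with G108 was not tested, and in bulk liver fewer cells of a type and less RNA per cell cannot be told apart. Each library came from a separate, singly housed mouse.

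The levels of the members, as TPM per exon length of the whole gene model, had a steep order. These lengths ran from 2488 bases for Prkaca to 13742 for Creb1, with 11186 for Gnas. The order between genes therefore depends on the gene models as well and is a description. Gm20721, a gene model on the other strand over Gnas exons, had a mean of 243 TPM as deposited. Gcgr stood first in all 4 groups, with group means from 135 to 219 scaled TPM, and did not overlap in any group with Gnas, which came next at 27.7 to 36.3. Prkar1a and Prkaca followed at 13.6 to 18.1, and their ranges overlapped each other in every group. Crtc2 lay at 9.85 to 12.1 and Creb1 at 0.697 to 0.749. Sik1 lay apart below Crtc2 in both vehicle groups, at means of 2.27 and 3.38, and overlapped with Crtc2 in both G108 groups, at 8.69 and 10.4. Crem, Pde4b and Nr4a1 had group means between 0.867 and 3.99. The fewest recovered reads among tested members were those of Nr4a1, with 36 to 741 per library, and Creb1 had 207 to 382.

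**Figure D1:**
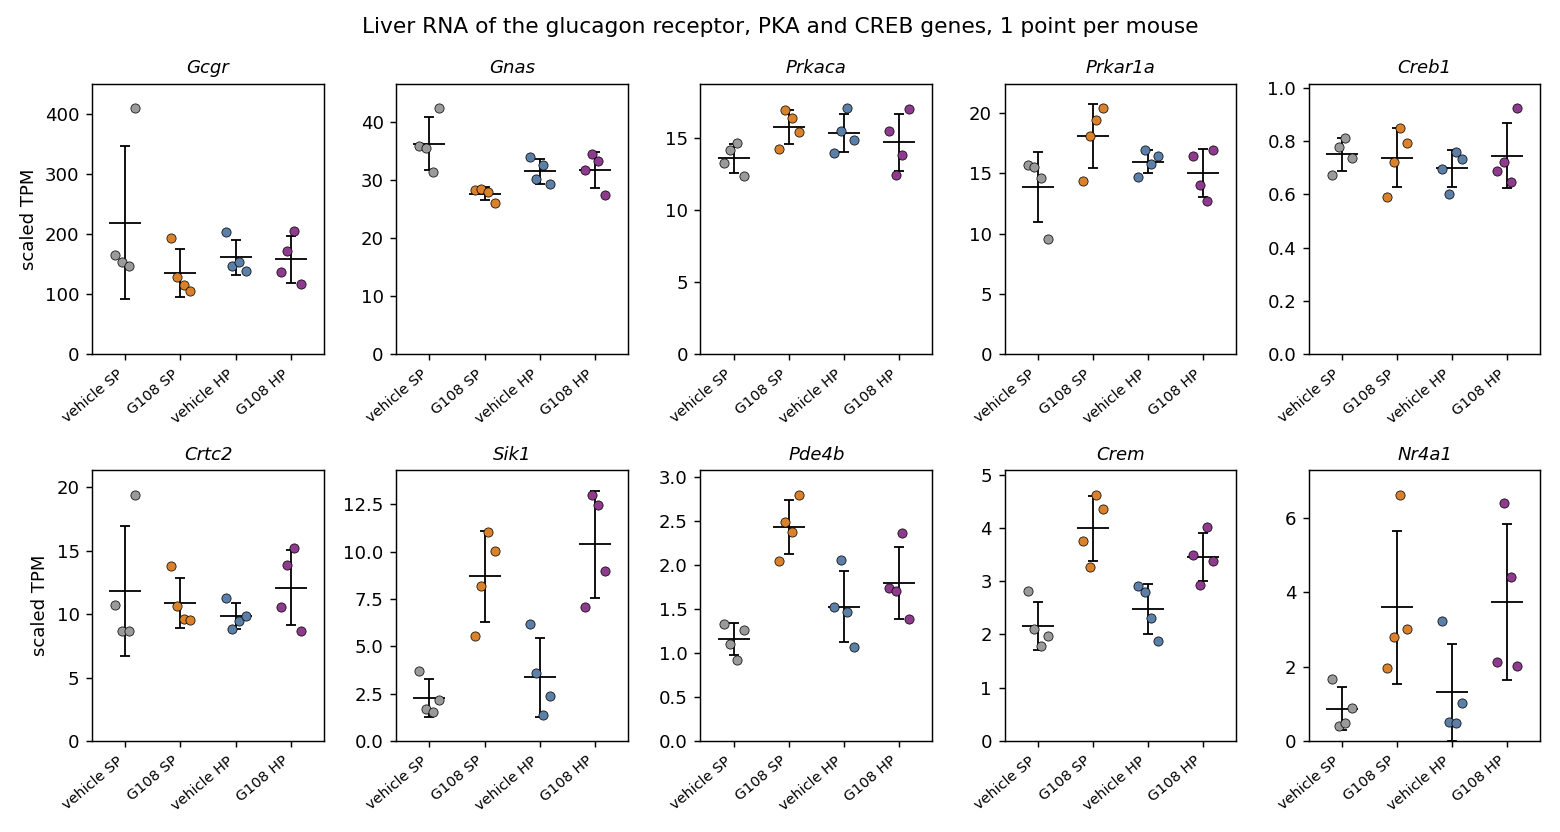
Scaled TPM (linear axes from 0) of each member in each of the 4 groups; points are mice, horizontal lines are group means and bars are 1 SD (n = 4). Sik1 lies between 5.52 and 13 in the G108 mice and between 1.35 and 6.18 in the vehicle mice, and the 1 high Gcgr point is vehicle SP mouse 4 at 409.

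The stretch of 250 bases before the start was read for the members with an entry among the RefSeq promoter sequences (GRCm38.p6), because CREB binds the cAMP response element TGACGTCA and its half-site TGACG, written CGTCA when it lies on the other strand. Entries were found for 7 of the 10 members, all but Sik1, Crtc2 and Crem, and covered 19 start sites. Both strands were searched, and a full element counts as 2 overlapping half-sites. A half-site was found before 9 of the 19 starts and in 5 of the 7 members. Windows of neighbouring starts of Gnas and of Prkar1a overlap, so that some sites are counted at more than 1 start. Of all 32851 windows of this length 17.8% held a half-site. The full element was found in 1 member, Prkar1a, and in 1.55% of all windows. Because of these overlaps and of the several starts per gene, the counts of starts and members are not on the same base as the window shares, and no enrichment is read from them. The 4 windows below show the receptor gene, which has no half-site, Prkar1a and Nr4a1, which hold the most elements, and Pde4b, which was called higher with G108 on SP. Each gene is shown at its start with the most half-sites. All are given on the plus strand, in lower case with half-sites and the full element in capitals. Gcgr is shown at chr11:120530477-120530726, at the start of the annotated gene. Prkar1a is shown at chr11:109650699-109650948, at 1 of its 6 starts, with the full element at -49 and a half-site at -187 counted from the start. Its other starts held 0 or 1 half-site. Pde4b is shown at chr4:102421305-102421554, at 1 of its 4 starts and inside the annotated gene, with a half-site at -34. Its other starts held 0 half-sites. Nr4a1 is shown at chr15:101266596-101266845, inside the annotated gene, with 4 half-sites at -233, -213, -69 and -40, a number reached by 0.137% of all windows. A match in these letters is a description of the window and says nothing of binding in these livers.
Gcgr: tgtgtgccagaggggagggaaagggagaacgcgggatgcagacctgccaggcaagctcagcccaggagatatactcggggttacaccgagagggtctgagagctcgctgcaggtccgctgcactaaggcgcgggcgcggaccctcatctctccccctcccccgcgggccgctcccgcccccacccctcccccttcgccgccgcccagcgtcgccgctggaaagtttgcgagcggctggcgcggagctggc
Prkar1a: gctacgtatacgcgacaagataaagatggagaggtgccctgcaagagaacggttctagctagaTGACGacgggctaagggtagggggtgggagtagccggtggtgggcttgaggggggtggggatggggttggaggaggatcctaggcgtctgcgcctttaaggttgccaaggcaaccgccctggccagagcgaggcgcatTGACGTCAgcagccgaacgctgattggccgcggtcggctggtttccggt
Pde4b: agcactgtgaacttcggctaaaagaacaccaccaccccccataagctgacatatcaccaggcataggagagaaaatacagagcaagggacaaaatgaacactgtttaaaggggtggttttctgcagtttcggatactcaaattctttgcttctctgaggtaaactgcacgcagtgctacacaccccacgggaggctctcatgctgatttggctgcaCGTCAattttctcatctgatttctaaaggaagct
Nr4a1: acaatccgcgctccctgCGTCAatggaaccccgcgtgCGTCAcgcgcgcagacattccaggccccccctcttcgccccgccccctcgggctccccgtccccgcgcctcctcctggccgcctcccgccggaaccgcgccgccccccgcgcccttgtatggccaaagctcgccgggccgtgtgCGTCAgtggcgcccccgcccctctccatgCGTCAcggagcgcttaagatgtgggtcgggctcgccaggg

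Gcgr encodes the glucagon receptor and lies on chromosome 11 at 120530699 to 120538986 of GRCm38. It was not called in any comparison. In vehicle SP the 4 mice had 165, 153, 147 and 409 scaled TPM, and in G108 SP they had 193, 129, 114 and 105. The ranges overlap, and vehicle SP mouse 4 stands far above all other mice. The log2 fold change on SP was -0.58 with a 95% interval from -1.22 to 0.05 (limma adjusted p = 0.318), and without vehicle SP mouse 4 it was -0.24 (limma adjusted p = 0.701).

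On HP the vehicle mice had 204, 147, 154 and 139 scaled TPM of Gcgr, and the G108 mice had 137, 172, 205 and 116. These ranges overlap over nearly their whole length, and the log2 fold change was -0.04 with an interval from -0.68 to 0.59 (limma adjusted p = 0.977). In TPM as deposited the Gcgr log2 fold change on SP was 0.19 (limma adjusted p = 0.446), so the direction on SP depends on the scaling. The intervals leave room for a fall of over 1 log2 unit on SP and for a change of more than 0.5 in either direction on HP. The receptor list of 11 genes had 4 above the limit, 0 of which were called by limma in any comparison, with 1 at an unadjusted p under 0.05 on SP and 0 on HP. Of these Ramp2, which encodes a partner protein of class B receptors, had a log2 fold change of -0.22 on SP (limma adjusted p = 0.199) and 0.06 on HP (limma adjusted p = 0.870).

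The genes with the pattern most like that of Gcgr over the 16 libraries were Rps6kb2, Zcchc7 and Fam193b, with Pearson r of log2 values of 0.987, 0.983 and 0.983. At each point both genes come from the same library and share its depth. The library with 409 scaled TPM of Gcgr also had the highest Rps6kb2, at 11.4 scaled TPM. The same library had the highest Crtc2 of all 16, at 19.4, the lowest Prkar1a, at 9.58, and in vehicle SP the highest red blood cell marker sum, at 3094. Its Serpina1a, a hepatocyte secretory gene, was 3363 scaled TPM where the other 3 vehicle SP mice had 8084 to 9104. The part of this library's state in its Gcgr level was not tested.

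Gnas encodes the stimulatory G protein alpha subunit and lies on chromosome 2 at 174284320 to 174346744. Its level was lower in all 4 G108 SP mice than in all 4 vehicle SP mice, yet it did not pass the test. Vehicle SP mice had 35.8, 35.5, 31.5 and 42.4 scaled TPM, and G108 SP mice had 28.3, 28.5, 27.9 and 26.1. The groups do not overlap, and Gnas was the 1 member without overlap in the lower direction, a state seen in 4.69% of genes tested. This was a log2 fold change of -0.37, with an interval from -0.58 to -0.16 (limma adjusted p = 0.0695).

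On HP the Gnas values of vehicle mice, 34.0, 30.1, 32.6 and 29.3 scaled TPM, overlapped with those of G108 mice, 31.9, 34.6, 33.3 and 27.4. The log2 fold change was 0.01 with an interval from -0.20 to 0.22 (limma adjusted p = 0.982). In TPM as deposited, Gnas on SP was higher with G108 by 0.38 on the log2 scale and was called (limma adjusted p = 0.0166), so its direction turns with the scaling. Without vehicle SP mouse 3 it was called lower at -0.43 (limma adjusted p = 0.0486). A gene model on the other strand, Gm20721, overlaps Gnas exons and had 7.59 to 7.65 times the TPM of Gnas in all 16 libraries, so reads of both cannot be told apart where strand was not counted. Gnas also makes several products from different starts, which gene-level TPM adds up.

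Of the 16 genes listed for G protein subunits and adenylyl cyclases, 9 were above the limit, and limma called 0 of them in any comparison, with 2 at an unadjusted p under 0.05 on SP and 0 on HP. Gnb2, a beta subunit, had log2 fold changes of 0.01 on SP and 0.05 on HP. Among the kinases and arrestins that switch off receptors, 3 of 7 genes were above the limit, and limma called 0 (0 at an unadjusted p under 0.05 on either diet). Grk2, a receptor kinase, had a log2 fold change of -0.20 on SP (limma adjusted p = 0.539) and 0.10 on HP (limma adjusted p = 0.896). Arrb2, an arrestin, had -0.26 on SP (limma adjusted p = 0.557) and 0.07 on HP (limma adjusted p = 0.946).

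Prkaca encodes the main catalytic subunit of PKA and lies on chromosome 8 at 83972993 to 83996443. In vehicle SP the mice had 13.2, 14.1, 14.7 and 12.4 scaled TPM and G108 SP mice had 14.2, 16.9, 16.4 and 15.4. The groups overlap through the lowest G108 mouse. G108 against vehicle gave a log2 fold change of 0.20 on SP with an interval from -0.02 to 0.41 (limma adjusted p = 0.315) and -0.06 on HP with an interval from -0.28 to 0.15 (limma adjusted p = 0.880).

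Prkar1a encodes a regulatory subunit that holds PKA inactive, and lies on chromosome 11 at 109649405 to 109669656. Among vehicle SP mice the levels were 15.7, 15.5, 14.6 and 9.58 scaled TPM and G108 SP mice had 14.4, 18.1, 19.4 and 20.4. Mouse 1 of G108 SP lies inside the vehicle range. Prkar1a had a log2 fold change of 0.37 on SP with an interval from 0.06 to 0.69 (limma adjusted p = 0.214) and -0.09 on HP with an interval from -0.40 to 0.23 (limma adjusted p = 0.887). Without vehicle SP mouse 4, the lowest of all mice, the log2 fold change on SP was 0.22 (limma adjusted p = 0.459). Of the 18 genes of PKA subunits, inhibitors and anchors, 10 were above the limit and limma called 0, with 1 at an unadjusted p under 0.05 on each diet. Akap1, which anchors PKA at mitochondria, had the highest mean of these at log2 fold changes of -0.04 on SP and 0.08 on HP. Among other cAMP effectors, Rapgef4, a cAMP-activated exchange factor, was the 1 of 5 genes above the limit, with log2 fold changes of 0.04 on SP and 0.05 on HP.

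Creb1 encodes the transcription factor itself and lies on chromosome 1 at 64532645 to 64604548. Its group means were 0.749 ± 0.0606 in vehicle SP, 0.738 ± 0.11 in G108 SP, 0.697 ± 0.0685 in vehicle HP and 0.745 ± 0.122 in G108 HP (scaled TPM, SD, n = 4). These means differ by less than the spread between mice. In the fit without a limit on low values, the log2 fold change of Creb1 was -0.01 on SP and 0.04 on HP.

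Crtc2 encodes the coactivator that links PKA and SIK signalling to CREB and lies on chromosome 3 at 90254163 to 90264125. The vehicle SP values were 10.7, 8.66, 8.67 and 19.4 scaled TPM and G108 SP mice had 13.8, 10.6, 9.62 and 9.55, so the groups overlap. The log2 fold change was -0.05 on SP with an interval from -0.52 to 0.42 (limma adjusted p = 0.905), and 0.19 without vehicle SP mouse 4 (limma adjusted p = 0.677). On HP it was 0.25 with an interval from -0.22 to 0.72 (limma adjusted p = 0.771). With TPM as deposited it was 0.66 on SP and was called (limma adjusted p = 0.00222). With all 16 libraries and scaled TPM, limma called none of Gcgr, Gnas, Prkaca, Prkar1a and Crtc2 in the 6 comparisons. At an unadjusted p under 0.05 on SP were Gnas and Prkar1a.

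The 4 feedback genes rose with G108 on the average of the diets, and 3 of them on SP alone. On SP, limma called 3 of the 9 members tested as higher (Sik1, Pde4b and Crem) and 0 as lower, compared with 1.33% of all genes tested called higher. On HP it called 1 (Sik1), compared with 0.642% of genes. Averaged over both diets it called 4 (Sik1, Nr4a1, Crem and Pde4b), compared with 2.86%. This averaged count was 3, without Nr4a1, when no limit was set on low values. Without overlap between the groups, 4 members were higher on SP, compared with 4.52% of genes, and 2 on HP (Sik1 and Crem), compared with 4.2%. The median log2 fold change of the 9 members was 0.37 on SP and 0.15 on HP, compared with -0.0082 and -0.0036 for all genes tested. Because the members were chosen with earlier results of these data known, these counts and shares are a description.

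Sik1 encodes a salt-inducible kinase that PKA inhibits and CREB induces, and lies on chromosome 17 at 31844250 to 31855804. Vehicle SP mice had 3.70, 1.68, 1.52 and 2.17 scaled TPM, and G108 SP mice had 5.52, 8.20, 11 and 10.0. Every G108 SP mouse was above every vehicle SP mouse. The group mean was 3.83 times higher with G108, at a log2 fold change of 1.58 ± 0.31 (SE; limma adjusted p = 0.0132). Without G108 SP mouse 3 or mouse 4 the adjusted p was 0.0547 or 0.0528.

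On HP the vehicle mice had 6.18, 3.61, 1.35 and 2.36 scaled TPM of Sik1, and the G108 mice had 7.09, 13, 12.5 and 9.00. Again no G108 mouse lay within the vehicle range, though vehicle HP mouse 1 was close to the lowest G108 HP mouse. The group mean was 3.08 times higher with G108, at a log2 fold change of 1.47 ± 0.31 (SE; limma adjusted p = 0.0371). This call on HP was lost without any 1 of mice 2 to 4 of either HP group, with adjusted p between 0.0556 and 0.140. It was also lost in limma fits without a limit on low values (adjusted p = 0.0943), of only the HP groups (0.0981) and with the mouse number as a block (0.0974). Averaged over diets the log2 fold change was 1.52 ± 0.22 (SE; limma adjusted p = 0.000761). Slc25a25, Tuba8 and Tat had the pattern most like that of Sik1 over the 16 libraries, with Pearson r of log2 values of 0.951, 0.948 and 0.947. These r pool all groups, so a shared difference between G108 and vehicle adds to them. Tat was itself called with G108 on both diets.

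Pde4b encodes a phosphodiesterase that hydrolyses cAMP and lies on chromosome 4 at 102087543 to 102607259. Vehicle SP mice had 1.33, 1.11, 0.921 and 1.26 scaled TPM, and G108 SP mice had 2.05, 2.49, 2.37 and 2.79. The groups are clearly apart, with a group mean 2.10 times higher and a log2 fold change of 0.67 ± 0.13 (SE; limma adjusted p = 0.00940). On HP the vehicle mice had 1.52, 2.05, 1.46 and 1.07 and the G108 mice had 1.74, 1.70, 2.36 and 1.38. There the ranges overlap, and the log2 fold change was 0.15 with an interval from -0.12 to 0.42 (limma adjusted p = 0.756). Averaged over diets it was 0.41 ± 0.09 (SE; limma adjusted p = 0.0127).

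Crem encodes cAMP-responsive modulators of CREB sites, both activators and repressors, which gene-level TPM cannot separate. Vehicle SP mice had 2.81, 2.10, 1.79 and 1.96 scaled TPM, and G108 SP mice had 3.75, 3.26, 4.62 and 4.35. The groups do not overlap, the group mean was 1.85 times higher, and the log2 fold change was 0.66 ± 0.13 (SE; limma adjusted p = 0.0115). In a fit of only the SP groups its adjusted p was 0.0688. On HP the vehicle mice had 2.90, 2.80, 2.31 and 1.88 and the G108 mice 3.50, 2.93, 4.02 and 3.37, which also do not overlap, by a narrow margin of G108 HP mouse 2 over vehicle HP mouse 1. The log2 fold change on HP was 0.36 with an interval from 0.09 to 0.64 (limma adjusted p = 0.241), and averaged over diets it was 0.51 ± 0.09 (SE; limma adjusted p = 0.00306). A gene model on the other strand overlaps Crem exons, at a mean of 0.135 TPM.

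Nr4a1 encodes an orphan nuclear receptor that is an early CREB target, and lies on chromosome 15 at 101254269 to 101274795. Vehicle SP mice had 1.67, 0.416, 0.499 and 0.880 scaled TPM and G108 SP mice had 1.96, 2.80, 6.62 and 3.02. The groups do not overlap, but both are wide, and the log2 fold change of 1.25 had an interval from 0.43 to 2.07 (limma adjusted p = 0.106). On HP the vehicle mice had 3.24, 0.50, 0.485 and 1.02 and the G108 mice 2.12, 6.42, 4.42 and 2.03. Vehicle HP mouse 1 exceeded the lowest 2 G108 HP mice, and the log2 fold change of 1.08 had an interval from 0.26 to 1.90 (limma adjusted p = 0.248). Averaged over diets Nr4a1 rose by 1.17 ± 0.27 (SE; limma adjusted p = 0.0189). The margin of this last call was thin: the limma adjusted p was 0.051 without the limit on low values. In vehicle SP the mean of Nr4a1 was 0.867 scaled TPM, so its higher level with G108 helped it reach the limit of 1 TPM.

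Mouse 1 of each vehicle group had the highest level of most feedback genes in its group, though none was far enough from the rest to be an outlier. In vehicle SP, mouse 1 had the highest Sik1, Pde4b, Crem and Nr4a1 of its group. In vehicle HP, mouse 1 had the highest Sik1, Crem and Nr4a1, while the highest Pde4b was in mouse 2. This is a description over 4 mice a group, and the values of a mouse share a library.

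**Figure D2:**
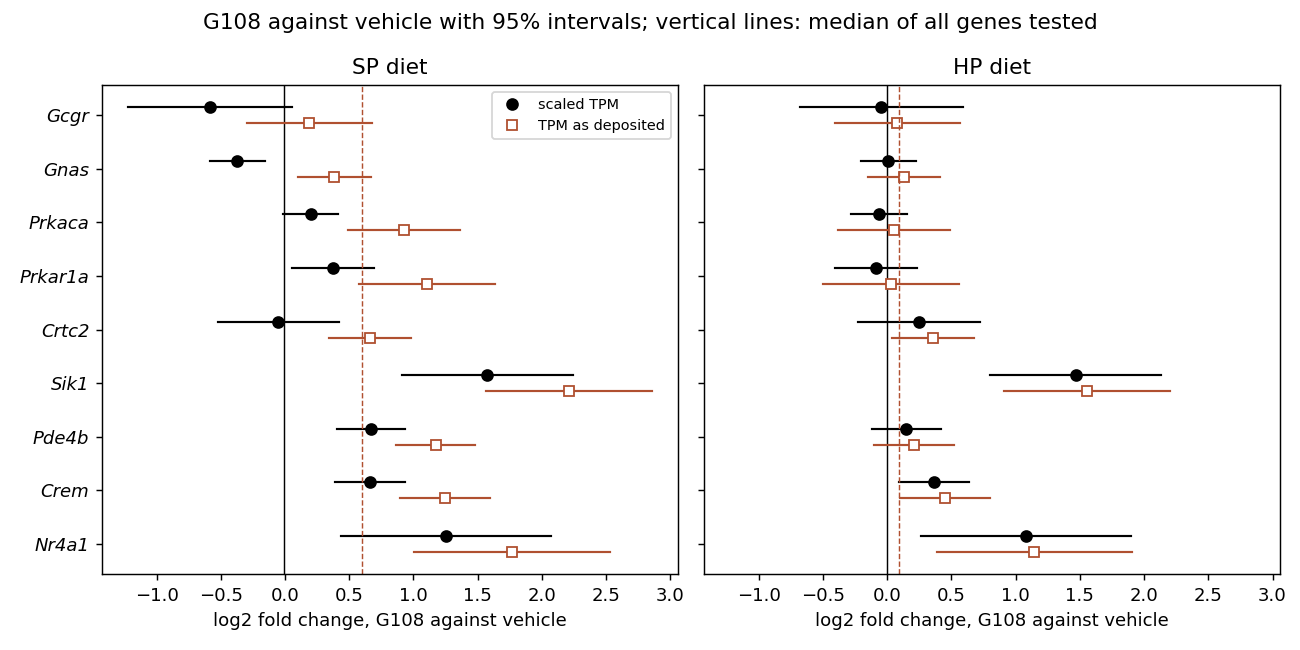
Log2 fold change of G108 against vehicle (x axis) for the 9 tested members on SP (left) and HP (right), with 95% intervals; filled circles are scaled TPM, open squares TPM as deposited, and vertical lines the median of all genes tested (solid for scaled, dashed for deposited). On SP the deposited values sit to the right for all 9 members, with a median gene at 0.60, and Sik1 is the furthest right in both.

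In TPM as deposited, 8 of the 9 members were called higher with G108 on SP, all but Gcgr, compared with 77.0% of all genes tested. On HP 1 was called (Sik1), compared with 0.819%, and averaged over diets 8 were called, compared with 61.0%. The count of 8 is thus near the share of all genes. Relative to the median gene, Sik1, Nr4a1, Crem and Pde4b were the 4 members furthest above it on SP under both scalings. On SP and in TPM as deposited their log2 fold changes were 2.21, 1.77, 1.25 and 1.17.

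Whether diet changed the level of a member, or its response to G108, was asked with 3 further comparisons. For HP against SP with G108, limma called 0 of the 9 members and 0.0% of all genes tested, with 1 member (Pde4b) at an unadjusted p under 0.05. For HP against SP with vehicle, limma called 0 members and 0.0% of genes, with 0 members at an unadjusted p under 0.05. For the difference of the G108 effect between diets, limma called 0 members and 0.0% of genes, with 3 members at an unadjusted p under 0.05. The voom fit on recovered reads also called 0 members in each of these.

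Those 3 members were Pde4b, Gnas and Prkar1a. The G108 effect on Pde4b was lower on HP than on SP by a log2 difference of -0.52 (interval -0.90 to -0.14, unadjusted p = 0.0103, limma adjusted p = 0.575). For Gnas the difference was 0.38 (interval 0.08 to 0.68, unadjusted p = 0.0173, limma adjusted p = 0.575), and for Prkar1a it was -0.46 (interval -0.91 to -0.01, unadjusted p = 0.0443, limma adjusted p = 0.575). Without vehicle SP mouse 4 the Prkar1a difference was -0.31 (limma adjusted p = 0.824). None passed the correction, and the Gnas and Prkar1a effects rest on SP values for which the scaling decides the direction or the call. For Sik1 the difference was -0.11 with an interval from -1.05 to 0.83, for Crem -0.30 from -0.68 to 0.09, and for Nr4a1 -0.17 from -1.33 to 0.99. The call of Pde4b and Crem on SP and not on HP is thus not shown to be a difference between diets.

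**Figure D3:**
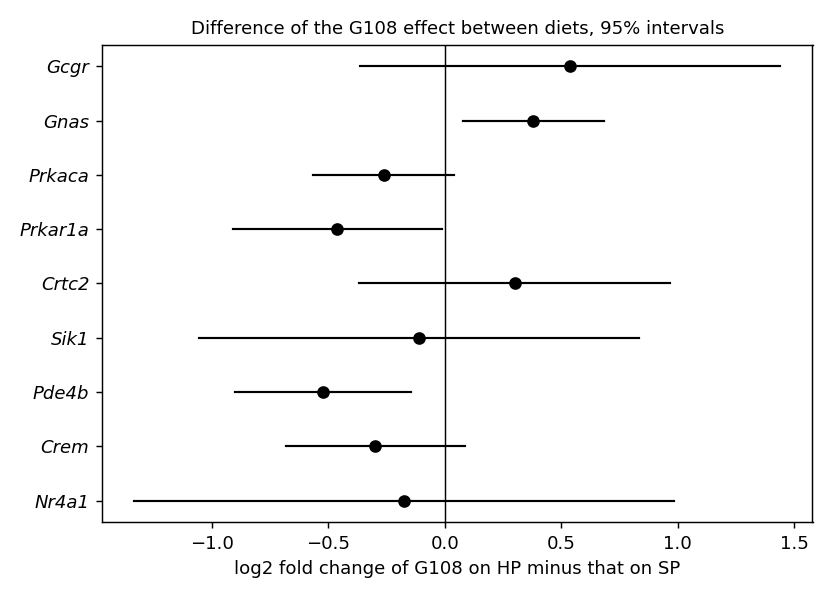
Difference in the log2 fold change of G108 between diets (HP minus SP, x axis) for the 9 tested members, with points as estimates and bars as 95% intervals on scaled TPM. The intervals of Gnas, Prkar1a and Pde4b lie on 1 side of 0, and all adjusted p are at or above 0.575.

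The pathway around the members was read from lists of 91 other genes, of which 41 were above the limit. Of these, limma called 4 higher on SP, 2 on HP and 8 averaged over diets, and 0 lower in each, compared with 1.33%, 0.642% and 2.86% of all genes tested called higher. Their median log2 fold changes were 0.03, 0.06 and 0.03, compared with -0.0082, -0.0036 and -0.0038 for all genes tested. The calls lay among CREB targets, with 1 SIK kinase and 1 phosphodiesterase called on the average of diets. These lists were chosen with earlier results of these data known, and the calls of CREB targets are counted again below. Sik3 rose by 0.28 ± 0.07 on the log2 scale (SE; limma adjusted p = 0.0309) and Pde8a by 0.24 ± 0.07 (SE; limma adjusted p = 0.0462). The list of CREB family, coactivators and SIK kinases had 8 of 12 genes above the limit, and its calls were Sik1 and Crem on SP, Sik1 on HP, and both with Sik3 on average. Of 16 phosphodiesterases, 5 were above the limit, and besides Pde4b on SP, and Pde4b and Pde8a on average, none was called.

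The CREB target list had 19 genes, 13 of them above the limit, and includes 4 of the members. On SP, 7 of the 13 were called higher, on HP 3 and on average 10, with 0 called lower in each, compared with 1.33%, 0.642% and 2.86% of all genes tested called higher. The median log2 fold changes of the list were 0.80, 0.66 and 0.69, compared with -0.0082, -0.0036 and -0.0038 for all genes tested. The list was chosen with results of these mice known and counts those 4 members again, so it is not independent evidence of a direction. Tat, the first enzyme of tyrosine breakdown, ranged from 197 to 499 scaled TPM in vehicle SP and from 571 to 1051 in G108 SP. The groups do not overlap, and the log2 fold change was 1.75 ± 0.31 on SP (SE; limma adjusted p = 0.00633) and 1.40 ± 0.31 on HP (SE; limma adjusted p = 0.0408).

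Pck1, the first committed enzyme of gluconeogenesis, ranged from 116 to 678 scaled TPM in vehicle SP and from 706 to 983 in G108 SP, with a log2 fold change of 1.70 ± 0.38 (SE; limma adjusted p = 0.0243). The change on HP, 1.17 on the log2 scale, was not called (limma adjusted p = 0.190). Ppargc1a, a coactivator that CREB induces in fasting, ranged from 0.658 to 1.61 in vehicle SP and from 2.07 to 3.08 in G108 SP, with log2 fold changes of 0.89 ± 0.14 on SP (SE; limma adjusted p = 0.00274) and 0.66 ± 0.14 on HP (SE; limma adjusted p = 0.0337). The highest Tat, Pck1 and Ppargc1a in vehicle SP were all in mouse 1, which also had the highest feedback genes. The remaining calls were G6pc, which encodes the last step of glucose release, on SP at 1.09 (limma adjusted p = 0.0296), and on the average of diets G6pc, Irs2 and Per1 at 0.99, 0.69 and 0.59. These 3 were named after their values were seen.

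**Figure D4:**
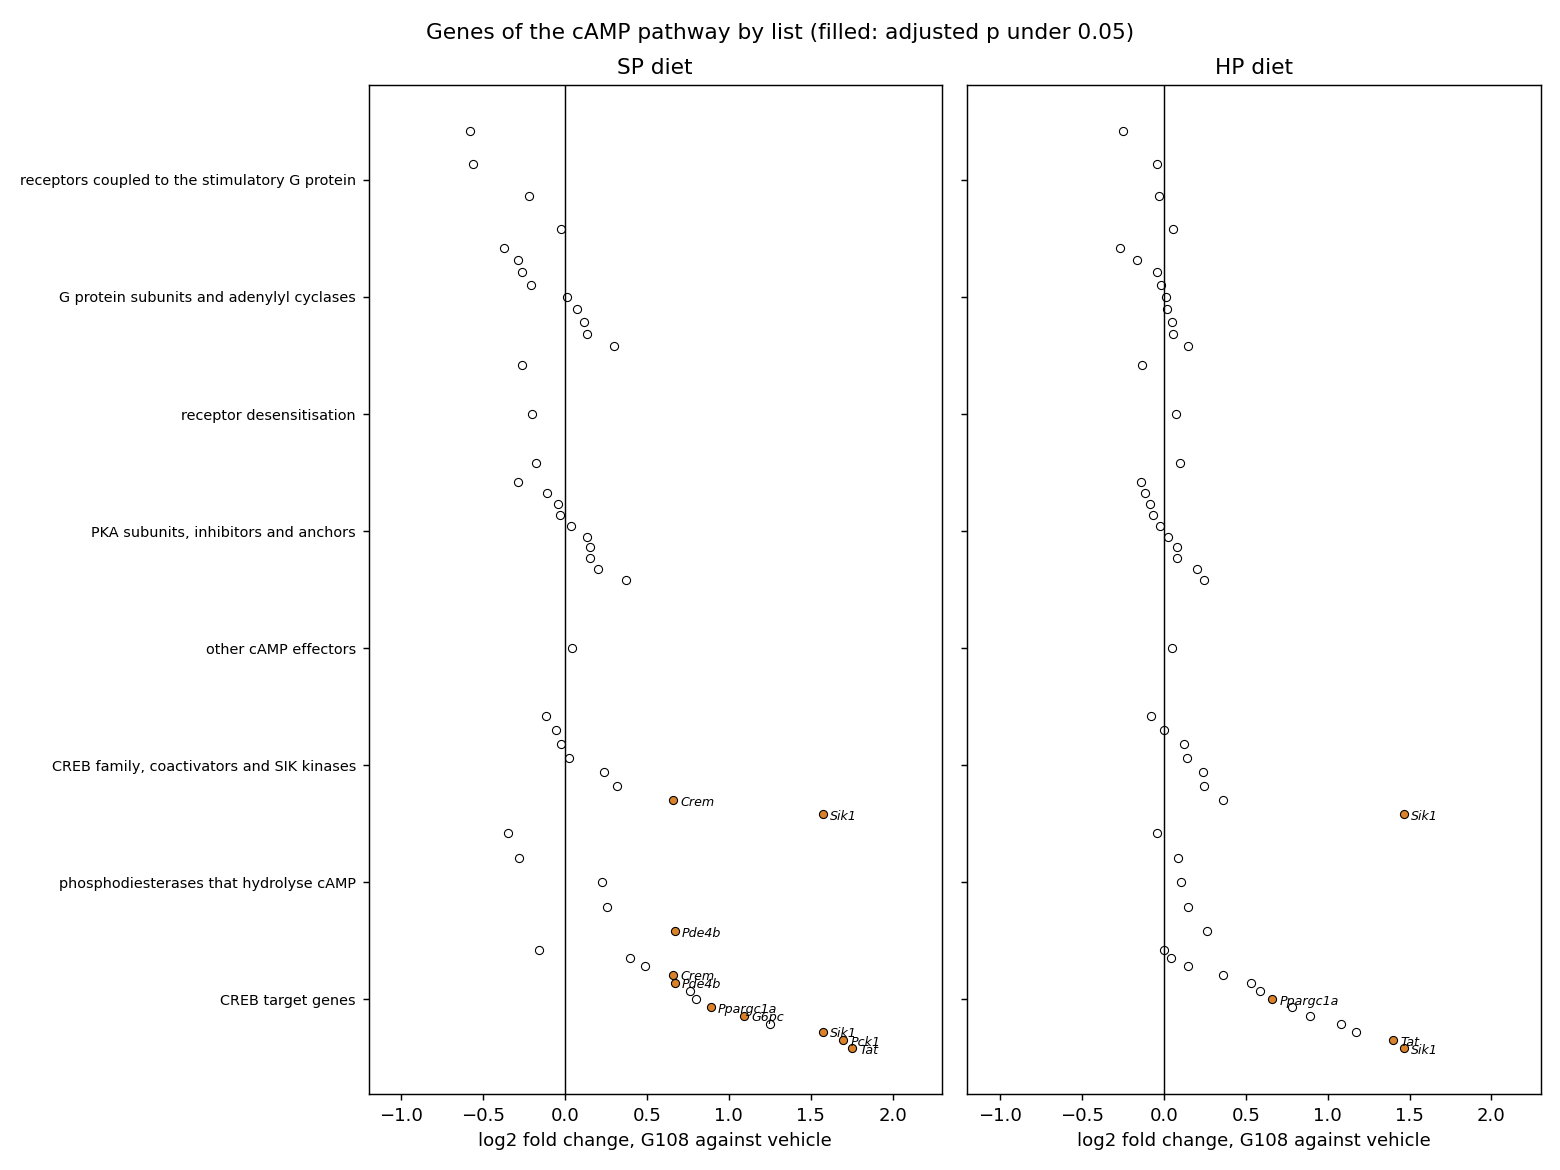
Log2 fold change of G108 against vehicle (x axis, scaled TPM) for genes above 1 TPM in each pathway list, members included, on SP (left) and HP (right); filled points have a limma adjusted p under 0.05 and are named. The filled points lie in the lists of CREB family, phosphodiesterases and CREB targets, and genes that belong to several lists are drawn in each.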

How the data were processed

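Liver RNA of 16 mice, 4 per group, was sequenced by the authors, who checked reads with FastQC 0.11.8, aligned them to GRCm38 with HISAT2 2.0.5 and counted them with featureCounts. The deposited values are TPM in 1 table of 55487 genes, computed by the authors from read counts and exon lengths; whether strand was counted is not given in the sources used here. All 16 columns were mapped by the sample records. Symbols and exon lengths came from a GENCODE annotation of GRCm38, not the study's own release. Read numbers were recovered from TPM and exon length (98.7% of 154290 low values came out whole to within 0.02 of a read), which gave 27.8 M to 45.0 M reads per library, and precision for rare genes is limited by counting error as well as by the 4 mice.

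TPM were divided by median-of-ratios factors from 11591 genes, because TPM of the typical gene shifted with G108 and the study's own count test uses such factors. Genes whose mean reached 1 TPM were compared on log2(scaled TPM + 1) in limma 3.58.1 (R 4.3.3), with 1 mean per group, a variance trend and Benjamini-Hochberg adjustment over 11839 genes; a call is an adjusted p under 0.05. Fold changes are on this scale, which understates changes of low genes. Intervals are 95%. The model was tested on simulated data. Percentages of all genes called are the background for counts of members.

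Alternatives were TPM as deposited, TPM rescaled without mitochondrial and Mup genes, a pseudocount of 0.1, no filter, a mean TPM of at least 5, the mouse number as a block, a fit without the other groups, voom on recovered reads and each library left out. The members and lists were chosen with earlier results of these data known. Named genes were the members, up to 3 called genes per list and contrast by size, in lists without calls up to 2 of the highest mean, and the 3 genes most like Gcgr and like Sik1. No library pair had identical values above 0, and r of log2 values within groups was 0.925 to 0.990.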

Additional observations from a re-analysis of the deposited data

Results flagged for a closer look

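Gcgr in vehicle SP mouse 4, at 409 scaled TPM, stood apart from the other 3 mice of its group, the nearest at 165, and the gap took 0.931 of the range of the group. This was the 1 value flagged among 40 sets of 4 mice (10 members in 4 groups), and chance flags about 1 in 20. The same library had the highest Crtc2 and the lowest Prkar1a of the 16. The log2 fold change of Gcgr on SP was -0.58 with it and -0.24 without it, not called in either, while Sik1, Pde4b and Crem were still called on SP without it. The cause was not tested.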

How the results depend on the processing

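On SP the count of members called higher was 3; it was 8 in TPM as deposited, 1 at a mean TPM of at least 5, where Pde4b, Crem and Nr4a1 are not tested, and 2 to 3 with 1 library left out. The count called lower on SP was 0, and 0 to 1 with 1 library left out, the 1 being Gnas without vehicle SP mouse 3. On HP the count was 1 (Sik1); it was 0 without a filter, 0 with the mouse number as a replicate block, 0 in a fit of only the HP groups, and 0 to 1 with 1 library left out (0 without mouse 2, 3 or 4 of either HP group). Averaged over diets it was 4. It was 8 in TPM as deposited and 1 at a mean TPM of at least 5. It was 3 without a filter and 3 with the mouse number as a replicate block, Nr4a1 being lost in both.

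With TPM as deposited Gnas turned to 0.38 on SP and 0.26 on average, and Crtc2 to 0.66 on SP; the median gene moves by 0.60 on SP there. Of 972 values of single members under the alternatives, 906 kept direction and call, 14 lost a call, 7 gained one in the same direction, the 3 just named were uncalled values that turned and were then called, and 42 changed sign without a call. The mouse numbers gave no sign of pairing the samples. Deviations of the 24 same-numbered pairs had a median r of -0.028, with 8 over 0.1, compared with a median of 0.016 for other-numbered pairs. The replicate block cost the calls of Sik1 on HP (adjusted p = 0.0974 in limma) and Nr4a1 on average (0.0501) and no other member call. Causes were not tested. Nr4a1 and Creb1 had the lowest median reads, 185 and 266 per library.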
